A study of Mus musculus with 8 samples.

Results

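Trace amine-associated receptors, encoded by the Taar genes, were examined in the olfactory mucosa of mice with a conditional deletion of the transcription factor gene Emx2 in mature olfactory sensory neurons (OSNs). Of 10 listed receptor genes (Taar2, Taar3, Taar4, Taar5, Taar6, Taar7a, Taar7b, Taar7d, Taar7e and Taar9), 9 had a transcript cluster, the unit at which the array reports expression, whose annotation named that gene alone. They were 9 of the 21789 clusters with a single gene. In the annotation used here Taar7a was named only on a cluster that it shares with 4 other Taar7 genes, so it had no value of its own. The study itself counted every Taar gene apart from Taar8a as having an unambiguous cluster. Each of the 9 genes had 1 cluster that named it alone.

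RNA from the mucosa of 8 pups at postnatal day 1 was hybridised to microarrays with 1 mouse per array. The 4 knockout mice had the genotype OmpCre:Emx2(fl/fl). The 4 control littermates could recombine at most 1 allele, since 3 of them (controls 1, 2 and 3) were labelled OmpCre:Emx2(fl/+) and the remaining mouse, control 4, had Emx2(fl/fl) but lacked Cre. All were of mixed 129 and C57BL/6J background, and the pups were of both sexes. OmpCre is an insertion of Cre recombinase at the Omp locus, so deletion is limited to neurons mature enough to use that locus, and the study found recombination by this Cre incomplete in reporter mice. By the labels the insertion was present in all 4 knockouts and in 3 of the 4 controls.

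Most OSNs choose a single odorant receptor (OR, Olfr genes), and a minority use a trace amine-associated receptor in place of an OR. These receptors bind volatile amines and, like ORs, signal through an olfactory G protein, adenylyl cyclase and a cyclic nucleotide-gated channel. Many of the neurons that use them lie in the dorsal epithelium, where most class I ORs, a distinct branch of the OR family, are also expressed. Taar1, the founding member, is not used as an olfactory receptor. In mouse, Taar3 responds to isoamylamine, Taar4 to beta-phenylethylamine and Taar5 to trimethylamine, while the Taar7 genes are a recently expanded subfamily of closely similar receptors. Emx2 is a homeodomain protein, and homeodomain sites lie in many OR gene promoters.

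The Taar genes lay side by side on chromosome 10 in the RefSeq gene table. The cluster held 16 Taar genes, of which 1 was a pseudogene, in the order Taar1, Taar2, Taar3, Taar4, Taar5, Taar6, Taar7a, Taar7b, the pseudogene Taar7c-ps, Taar7d, Taar7e, Taar7f, Taar8a, Taar8b, Taar8c and Taar9, with 2 other genes between the first and the last. RefSeq windows of 300 bases (250 before to 50 after the annotated start, build GRCm38.p6) were found for 9 of the 10 listed genes: Taar2, Taar3, Taar5, Taar6, Taar7a, Taar7b, Taar7d, Taar7e and Taar9. In all 9 an ATG stood at the annotated start, so these windows are counted from the start codon and may not hold the site where transcription begins. The window of Taar5 is shown because it had the most matches of a short homeodomain motif. Its matches all read TTATTA, and some of them overlap in a repeat. Whether matches go with differences between the groups was not tested. Taar3 and Taar7d, with 0 matches, had differences of 0.13 and 0.12, against 0.21 for Taar5. Capitals mark TAATNA on either strand, where it reads TNATTA on the other, and overlapping matches run together.
Taar5 at chr10:23970456-23970755, plus strand: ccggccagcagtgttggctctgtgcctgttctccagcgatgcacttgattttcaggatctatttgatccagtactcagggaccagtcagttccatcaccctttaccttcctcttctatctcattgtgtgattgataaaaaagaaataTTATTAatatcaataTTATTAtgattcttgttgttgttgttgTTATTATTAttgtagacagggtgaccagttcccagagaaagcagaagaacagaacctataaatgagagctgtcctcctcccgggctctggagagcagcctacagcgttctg

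TAATNA was present in 5 of the 9 windows (55.6%), with 4 matches in Taar5, 2 each in Taar7a and Taar7b, and 1 each in Taar2 and Taar7e. It was present in 66.6% of 867 Olfr windows and in 26.5% of all 32851 windows. The palindrome TAATTA, a form of TAATNA, was in 0 of the 9 windows, in 18.5% of the Olfr windows and in 5.29% of all. CCCNNGGG, the core of sites for Ebf transcription factors, was in 0 of the 9, in 3% of the Olfr windows and in 13.7% of all. These are letters in a window and do not show where a factor binds.

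Some Taar7 genes resemble each other closely, and this may limit how far single clusters can separate them. The last 100 bases of 3 windows, 50 before and 50 after the start codon's first base, are shown to make this visible. Capitals again mark TAATNA.
Taar7b at chr10:23999889-23999988, plus strand: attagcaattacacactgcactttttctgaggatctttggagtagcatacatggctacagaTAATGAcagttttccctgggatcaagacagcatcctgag
Taar7d at chr10:24027172-24027271, plus strand: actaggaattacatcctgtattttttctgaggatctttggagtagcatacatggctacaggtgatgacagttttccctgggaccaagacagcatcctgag
Taar7e at chr10:24037564-24037663, plus strand: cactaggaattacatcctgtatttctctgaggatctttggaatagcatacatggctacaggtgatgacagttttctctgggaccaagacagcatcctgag

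Taar7b and Taar7d had the same base at 91 of these 100 positions, Taar7d and Taar7e at 80, and Taar7b and Taar7e at 76, compared position by position without gaps. Taar7a was less close, with the same base as Taar7b at 50, as Taar7d at 50 and as Taar7e at 49. For comparison, Taar5 and Taar7b had the same base at 24. Probe sequences were not compared. These 100 bases may not be those that the probes cover. The study counted every Taar gene apart from Taar8a as having an unambiguous cluster on this array. Probes of a Taar7 gene may still take up RNA of another, which was not tested. Values of Taar7b, Taar7d and Taar7e are uncertain to that extent.

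The targeted gene was checked first. Emx2 had log2 signals of 10.25, 10.14, 10.34 and 10.14 in the knockouts, against 10.83, 10.74, 10.58 and 10.89 in the controls. All knockouts lay below all controls. The difference (knockout minus control) was -0.55 ± 0.08 (SE, n = 4 and 4), or 0.684 of the control level, and it did not pass over all genes (limma adjusted p = 0.201). Lhx2, a homeodomain factor that regulates OR genes, differed by 0.047 ± 0.083 (limma adjusted p = 0.953). Omp, a marker of mature OSNs, was at 12.76, 12.67, 12.91 and 12.60 in the knockouts, against 13.43, 12.72, 12.56 and 13.29 in the controls. Control 1, labelled as carrying OmpCre, had the highest Omp signal, above control 4, which was labelled as lacking it. Without control 1 the mean difference of the 9 Taar genes was 0.12. The Omp difference was -0.27 ± 0.19 (limma adjusted p = 0.910).

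Array medians ran from 8.64 to 8.68 and correlations between arrays from 0.985 to 0.994. Control 2 stood apart on principal component 1, which held 32.5% of the variance, with a score of 32.9 beside scores of -11.83 to 6.11 for the other 7 arrays. An immune cell list (8 genes measured) was 0.786 above its mean over all arrays in control 2. The mean signal of 3 Y-linked genes was high in knockout 3 and in controls 2, 3 and 4, and lower in knockouts 1, 2 and 4 and in control 1, with means of 10.53 to 10.72 in the high set and 7.05 to 8.09 in the low set.

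None of the 9 Taar genes was called as different by the test used, and the groups overlapped for all 9. The test did not call the targeted gene Emx2 either, so an uncalled gene is not shown to be unchanged. limma called 0 of the 9 at an adjusted p under 0.05, where it called 0% of all 21789 clusters. At an unadjusted p under 0.05 it gave 0 of the 9 higher in knockouts (2.62% of all clusters) and 0 lower (2.55% of all). The methods' t-test on the same values also gave 0 at either level. All 4 knockouts lay above all 4 controls for 0 of the 9 genes, against 1.62% of all clusters, and below them for 0, against 1.48%. The mean was higher in knockouts for 9 of the 9, against 51.4% of all clusters. Only 6 of the 9 means were higher without control 3, and 8 without knockout 3. Which Taar genes were listed was decided with earlier results of these arrays known, so this direction is a description. Over all 13 Taar genes with a cluster of their own, 10 had a higher mean in knockouts and 3 a lower one. Their mean difference was 0.085 and the median 0.12. Taar1, Taar8b and Taar8c among them had low signals, with group means of 4.55 to 5.41.

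**Figure D1:**
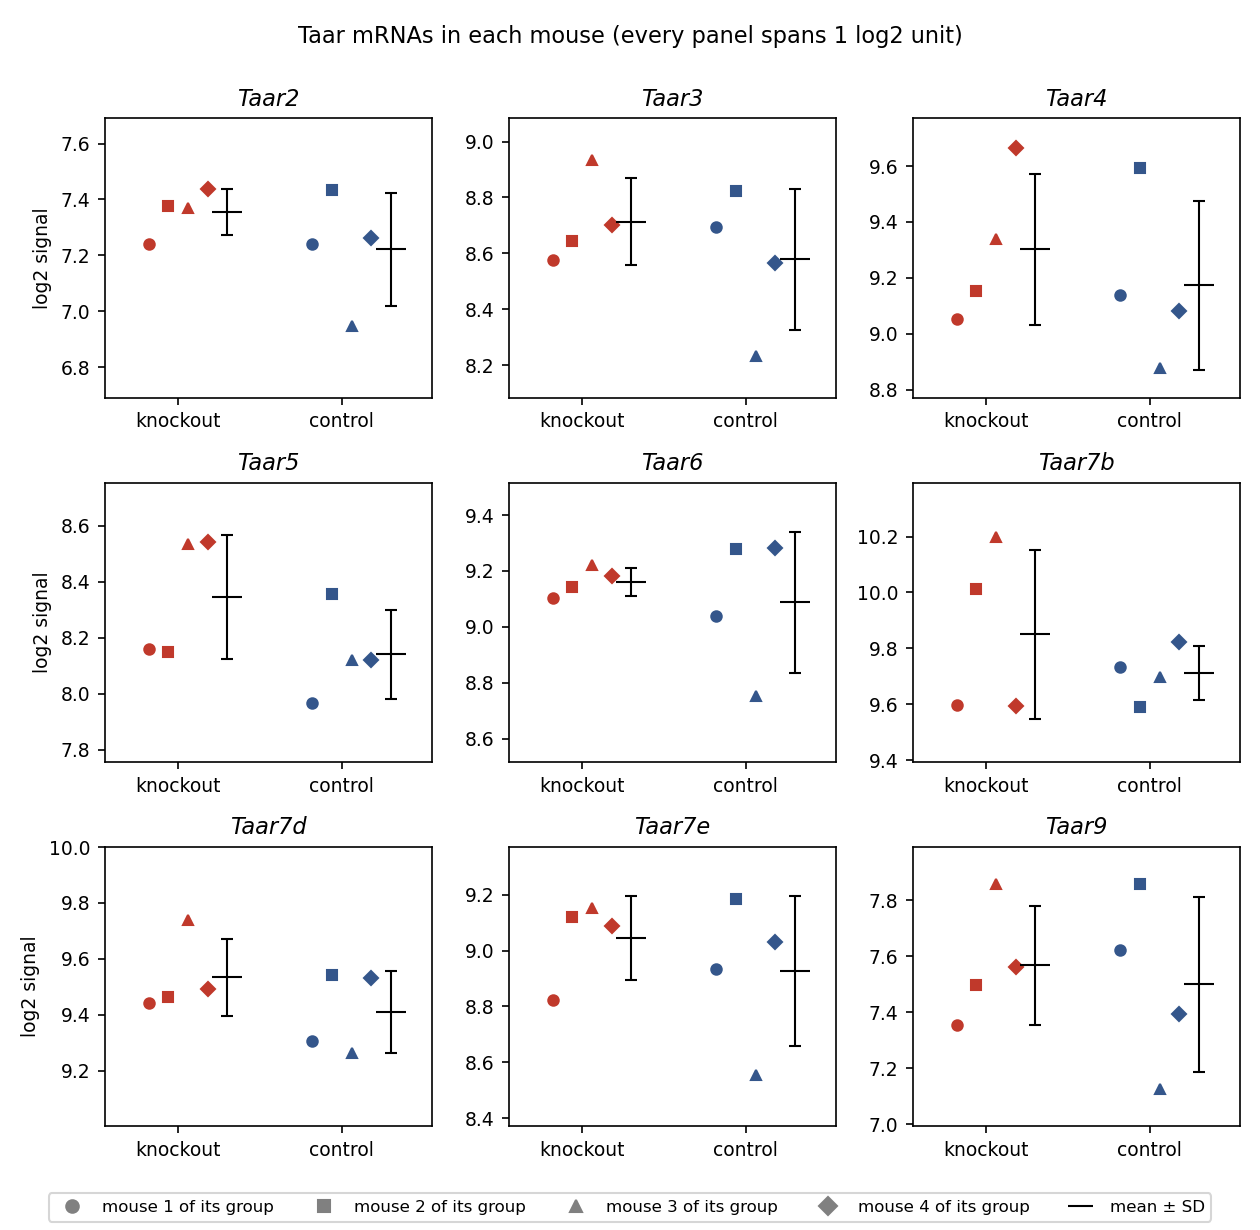
Log2 signal of each of 9 Taar genes in each mouse, knockouts on the left and controls on the right of every panel. Symbols are single mice, horizontal lines are group means and bars are SDs (n = 4 each), and every panel spans 1 log2 unit. Control 3 was the lowest mouse for 7 of the 9 genes, and the groups overlapped in every panel.

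Taar5, the trimethylamine receptor, had log2 signals of 8.16, 8.15, 8.54 and 8.54 in the knockouts, against 7.97, 8.36, 8.12 and 8.12 in the controls. Knockouts 3 and 4 were the highest of the 8 mice and control 1 the lowest, while knockouts 1 and 2 lay inside the range of the controls. The difference was 0.21 ± 0.12 (95% confidence interval -0.066 to 0.48), or 1.15-fold, and did not pass (limma adjusted p = 0.910, unadjusted p = 0.121). This was the smallest unadjusted p among the 9 genes. Leaving out each mouse in turn gave 0.14 to 0.28.

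Taar4, the beta-phenylethylamine receptor, had signals of 9.05, 9.15, 9.34 and 9.66 in the knockouts, against 9.14, 9.59, 8.88 and 9.08 in the controls. Knockout 4 and control 2 were both high, and knockouts 1, 2 and 3 all lay inside the control range. The difference was 0.13 ± 0.17 (interval -0.26 to 0.52, limma adjusted p = 0.938). It rested on single mice, at 0.0074 without knockout 4, 0.030 without control 3 and 0.27 without control 2. Taar4 had the widest spread within groups of the 9 genes, with an SD of 0.286, above that of 94.7% of all clusters.

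Taar3, the isoamylamine receptor, had signals of 8.58, 8.64, 8.93 and 8.70 in the knockouts, against 8.69, 8.82, 8.23 and 8.57 in the controls. Knockout 3 was the highest mouse and control 3 the lowest, and the other 6 lay within their gap. The difference was 0.13 ± 0.13 (interval -0.16 to 0.43, limma adjusted p = 0.918). It was 0.019 without control 3, 0.061 without knockout 3 and 0.22 without control 2.

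Taar2, which begins the run of olfactory members next to Taar1, had signals of 7.24, 7.38, 7.37 and 7.44 in the knockouts, against 7.24, 7.43, 6.95 and 7.26 in the controls. The knockouts were close together, and control 2 was level with the highest of them. The difference was 0.14 ± 0.10 (interval -0.087 to 0.36, limma adjusted p = 0.910). It was 0.043 without control 3 and 0.21 without control 2.

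Taar6 and Taar9 had the smallest differences. Taar6 had signals of 9.10, 9.14, 9.22 and 9.18 in the knockouts, against 9.04, 9.28, 8.75 and 9.28 in the controls. All 4 knockouts lay inside the control range, which was wide because of control 3, and controls 2 and 4 were the highest mice. The difference was 0.074 ± 0.11 (interval -0.18 to 0.33, limma adjusted p = 0.945), and it was -0.038 without control 3 and 0.14 without control 2 or control 4. Taar9, at the far end of the cluster, had signals of 7.35, 7.50, 7.86 and 7.56 in the knockouts, against 7.62, 7.86, 7.12 and 7.39 in the controls. Knockout 3 and control 2 shared the top. The difference was 0.069 ± 0.16 (interval -0.30 to 0.44, limma adjusted p = 0.964), with -0.056 without control 3, -0.028 without knockout 3, 0.033 without control 4 and 0.11 to 0.19 without knockout 1, control 1 or control 2.

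Among the Taar7 genes, Taar7b had signals of 9.60, 10.01, 10.20 and 9.59 in the knockouts, against 9.73, 9.59, 9.70 and 9.82 in the controls. It was split within the knockouts, with knockouts 2 and 3 above every control and knockouts 1 and 4 near the lowest control. The difference was 0.14 ± 0.14 (interval -0.17 to 0.45, limma adjusted p = 0.918), with 0.023 without knockout 3, 0.085 without knockout 2, 0.22 without knockout 1 or knockout 4, and 0.067 with array weights. Taar7d had 9.44, 9.46, 9.74 and 9.49 in the knockouts, against 9.30, 9.54, 9.26 and 9.53 in the controls, a difference of 0.12 ± 0.09 (interval -0.084 to 0.33, limma adjusted p = 0.910). Only knockout 3 lay outside the control range. The Taar7d difference was 0.055 without knockout 3 and 0.074 without control 3. Taar7e had 8.82, 9.12, 9.15 and 9.09 in the knockouts, against 8.93, 9.19, 8.56 and 9.03 in the controls, a difference of 0.12 ± 0.13 (interval -0.18 to 0.42, limma adjusted p = 0.923). All 4 knockouts lay inside the control range, and the sign depended on control 3, without which the difference was -0.0047, while it was 0.19 without knockout 1 and 0.20 without control 2.

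The cluster that names Taar7a together with Taar7b, Taar7d, Taar7e and Taar7f had signals of 9.51, 9.72, 10.07 and 9.60 in the knockouts, against 9.58, 9.69, 9.23 and 9.73 in the controls. The mean difference was 0.17, and knockout 3 and control 3 were again the extremes. This cluster cannot be assigned to Taar7a.

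The intervals bound how large a change could be, and they differed between genes. On the fold scale the 95% interval was 0.833 to 1.43 for Taar4, the widest, and 0.943 to 1.26 for Taar7d, the narrowest. The mucosa is a mixture of cells, so fewer neurons that use a receptor and less of its RNA per neuron cannot be told apart.

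**Figure D2:**
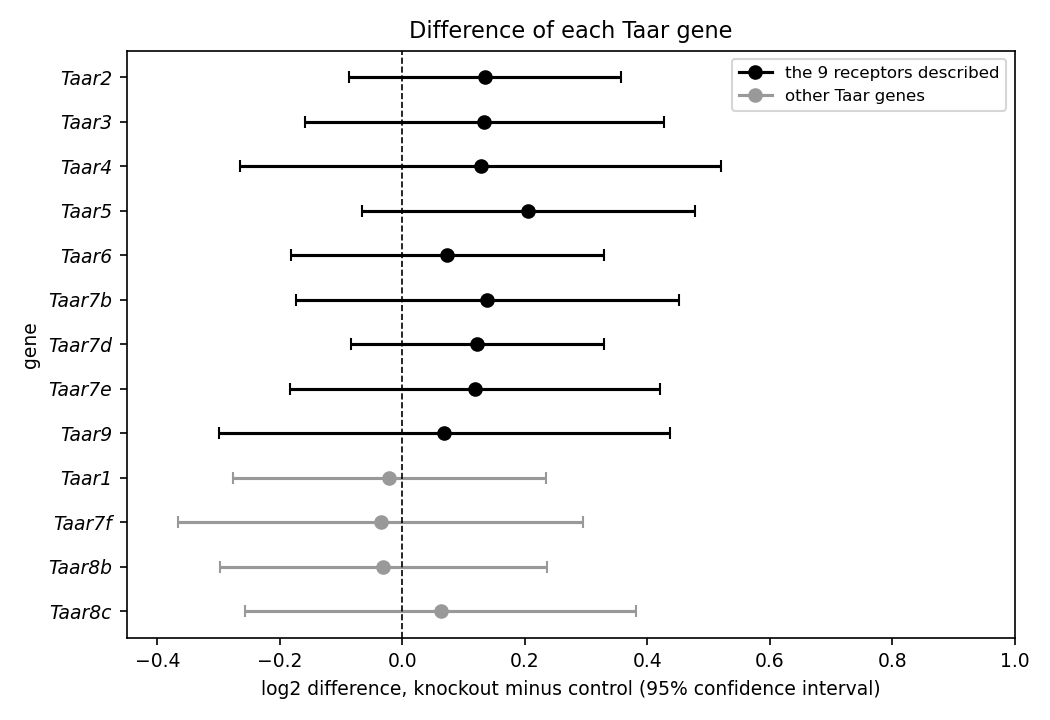
Difference in mean log2 signal, knockout minus control, of each of 13 Taar genes (points) with its 95% confidence interval (bars) from limma. The 9 listed genes (black) had means between 0.069 and 0.21, the 4 others (grey) between -0.035 and 0.063, and every interval included 0.

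The other 4 Taar genes with a cluster of their own were Taar1, Taar7f, Taar8b and Taar8c. Their differences were -0.021, -0.035, -0.031 and 0.063, and 0 of the 4 reached an unadjusted p under 0.05 by limma. Taar7f, an olfactory member of the Taar7 subfamily, had signals of 7.37, 7.74, 7.98 and 7.82 in the knockouts, against 7.60, 7.85, 7.58 and 8.03 in the controls. Its mean thus lay slightly below the controls while those of Taar7b, Taar7d and Taar7e lay above. A test of that contrast between subfamily members was not run. Taar8a, Taar8b and Taar8c shared a further cluster with a difference of 0.061.

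The 9 genes varied together from mouse to mouse. For each gene the mean over the 8 mice was subtracted, and the 9 centred values were averaged for each mouse. This average was -0.11, 0.027, 0.23 and 0.11 in the knockouts, against -0.071, 0.15, -0.30 and -0.024 in the controls. Knockout 3 was above the gene's own mean for 9 of the 9 genes, knockout 4 for 8 and control 2 for 8, while knockout 1 and control 3 were above it for 0. Control 3 was the lowest mouse for 7 genes, with control 1 lowest for Taar5 and control 2 for Taar7b. The highest mouse was knockout 3 for 4 genes, knockout 4 for 3, control 2 for Taar7e and control 4 for Taar6.

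The mean difference of the 9 genes was 0.13 and the median 0.13, where the median of all clusters was 0.0024. The mean signal was 8.76 ± 0.14 in knockouts and 8.64 ± 0.19 in controls (SD, n = 4 each), so the distance between the groups was smaller than the SD within either. Without control 3 the mean difference was 0.044, without knockout 3 it was 0.071, and without control 2 it was 0.20. The 9 genes had a median SD within groups of 0.210, against 0.194 for Olfr genes and 0.0967 for all clusters.

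Over the 8 arrays, 35 of the 36 pairs among the 9 genes had a Pearson correlation above 0, with a median of 0.704 (0.688 after group means were removed, where 33 pairs were above 0). The closest pair was Taar3 and Taar9 (0.960), and the most distant was Taar4 and Taar7b (-0.151). Taar7b stood apart from the rest. Its 8 pairs had a median correlation of 0.242, and the 28 pairs without it ran from 0.445 to 0.960 with a median of 0.754. These pairs share the same 8 RNA samples, and pairs of Taar7 genes may share RNA between probes, so the 9 genes are not 9 separate observations of a knockout effect.

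The OR genes were compared with the Taar genes in the same mice. There were 1009 Olfr genes with a cluster of their own, with a mean difference of -0.10, and 294 had a higher and 715 a lower mean in knockouts. Leaving out knockout 3 gave -0.16, leaving out knockout 4 gave -0.063, and leaving out control 4 gave -0.067. At an unadjusted p under 0.05, limma gave 4 higher and 115 lower, with 0 passing over all genes. Taken in either direction these were 11.8% of the Olfr genes, against 5.17% of all clusters. Among 118 class I genes, 60 were higher and 58 lower, with a mean difference of 0.0027. In this class 1 higher and 2 lower reached an unadjusted p under 0.05 (2.54% of the class). Among 878 class II genes, 231 were higher and 647 lower, with a mean difference of -0.11, and 3 higher and 112 lower reached that level (13.1% of the class). All 9 listed Taar differences lay above the means of both OR classes. Among the other Taar genes, Taar8c (0.063) did too. Taar1 (-0.021), Taar7f (-0.035) and Taar8b (-0.031) lay below the class I mean and above the class II mean. Scaled to a list of mature OSN genes, the mean difference of the Olfr genes was 0.00068 and that of the 9 Taar genes was 0.23. The lower Olfr mean was not seen on that scale, which rests on the mean of the list. The list had 24 measured genes, with a mean difference of -0.10 and a median of -0.043, and 6 were higher. Its lowest genes were S100a5 (-0.58), Cidea (-0.43), Kirrel2 (-0.33) and Omp (-0.27), and Omp is the locus of the Cre insertion. Scaling without them was not run. The study reported mature OSN numbers as unaffected by conditional Emx2 deletion. The distance between the 9 Taar genes and the Olfr genes cannot change under a scaling of whole arrays.

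**Figure D3:**
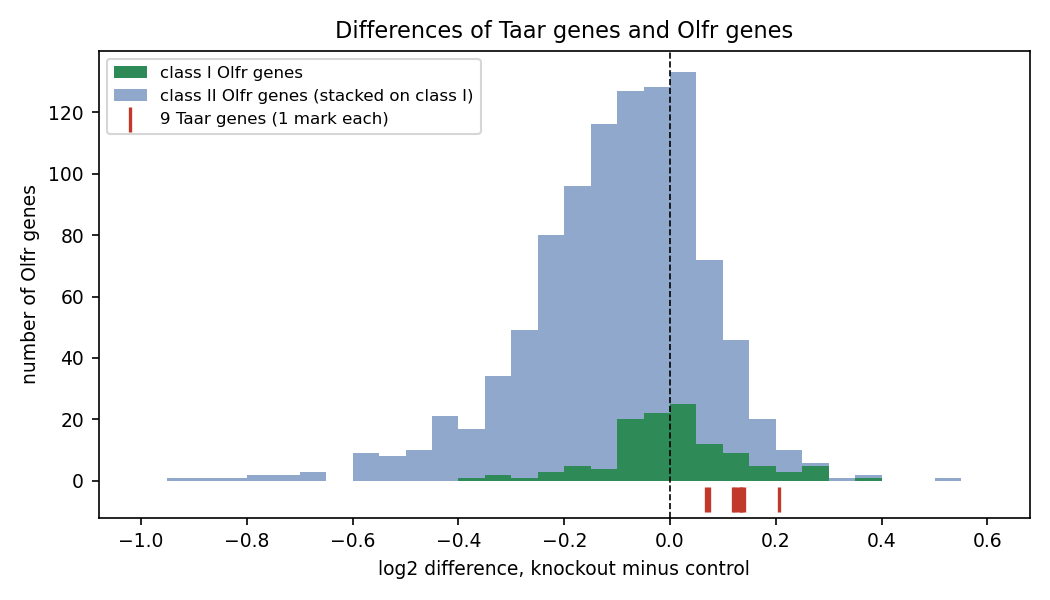
Number of Olfr genes (vertical axis) by difference in log2 signal, knockout minus control (horizontal axis), for 118 class I genes and, stacked on them, 878 class II genes. Red marks under the bars are the 9 Taar genes, which lay between 0.069 and 0.21, inside the spread of both OR classes.

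Olfr606 had the smallest p among Olfr genes with a higher mean in knockouts. It was at 8.65, 8.47, 8.61 and 8.62 in the knockouts, against 8.32, 8.55, 8.05 and 8.24 in the controls, a difference of 0.30 ± 0.10 (limma adjusted p = 0.876). Olfr1249 had the smallest with a lower mean, at 6.80, 7.06, 6.93 and 6.78 in the knockouts, against 7.34, 7.24, 7.38 and 7.26 in the controls. Its groups did not overlap, with a difference of -0.41 ± 0.07 (limma adjusted p = 0.326).

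Within each mouse, the centred mean of the 9 Taar genes minus that of all Olfr genes was 0.0066, 0.070, 0.11 and 0.27 in the knockouts, against -0.19, 0.14, -0.22 and -0.18 in the controls. All 4 knockouts were above controls 1, 3 and 4, and only knockout 4 was above control 2. The difference was 0.23, and leaving out each mouse in turn gave 0.17 to 0.31. Set against class II genes the difference was 0.24, with controls 1, 3 and 4 below every knockout and control 2 above 3 knockouts. Against class I genes it was 0.12, and the values were -0.067, 0.18, 0.080 and 0.056 in the knockouts, against -0.029, -0.020, -0.17 and -0.021 in the controls. In that comparison knockouts 2, 3 and 4 were above every control, and knockout 1 was below 3 of them. No p is given for these averages, because the genes were listed with results of these arrays known. The averages cover the listed genes only and not the other Taar genes.

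From mouse to mouse the Taar genes went with class I more closely than with class II Olfr genes. Over the 8 arrays, the centred Taar mean had a Pearson r of 0.782 and a Spearman rho of 0.714 with the class I mean, and 0.166 and 0.167 with the class II mean. With group means removed, r was 0.848 for class I and 0.436 for class II. Without control 3 and knockout 3, the 2 mice farthest from the median Taar mean, r was 0.640 for class I and -0.312 for class II. The median r of single genes with the Taar mean was 0.520 over 118 class I genes and 0.131 over 878 class II genes. Each r rests on 8 arrays that share 1 RNA sample and 1 normalisation for both axes, and the difference between the correlations was not tested.

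**Figure D4:**
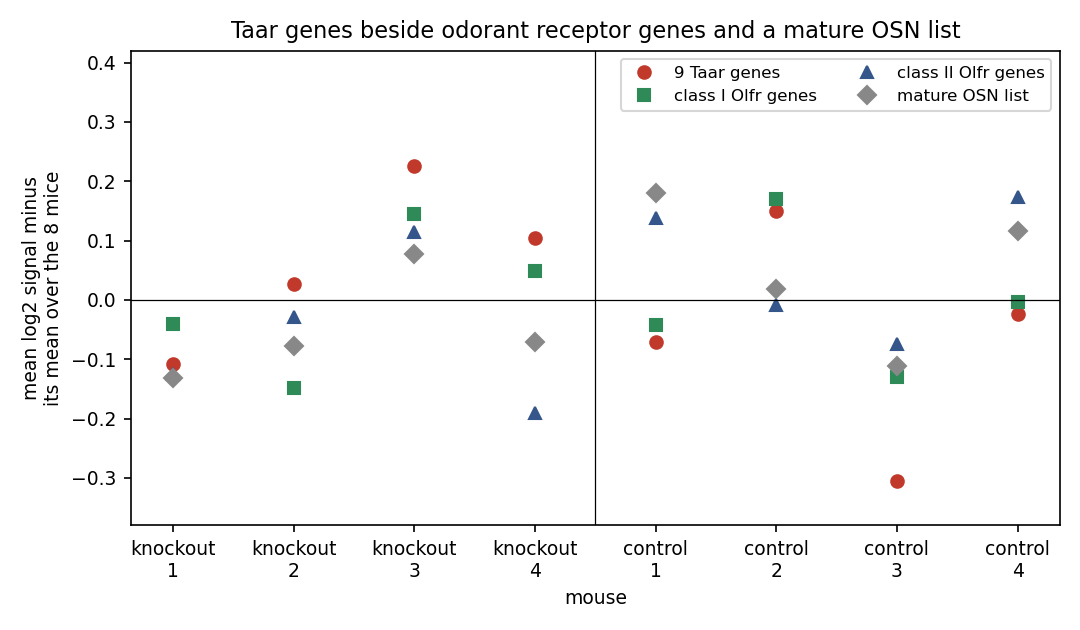
Mean log2 signal of 9 Taar genes, 118 class I and 878 class II Olfr genes and a mature OSN list (24 genes) in each mouse, each minus its own mean over the 8 mice, with knockouts on the left and controls on the right. The Taar mean was 0.23 in knockout 3 and -0.30 in control 3, and in controls 1 and 4 the class II and mature OSN means lay above the Taar and class I means.

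The genes most like the Taar mean over the 8 arrays, among clusters at or above the median signal, included an OR of class II. Olfr877 had an r of 0.958, Hs3st5, a heparan sulfate sulfotransferase, 0.948, Glb1, the lysosomal beta-galactosidase, 0.942, Glyatl3, of the glycine N-acyltransferase family, 0.936, and Slc27a2, a fatty acid transporter and acyl-CoA synthetase, 0.932. Olfr877 was at 8.97, 9.24, 9.63 and 9.32 in the knockouts, against 8.95, 9.40, 8.75 and 9.29 in the controls, with knockout 3 high and control 3 low as for most Taar genes. These are the highest of many correlations over 8 arrays.

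Genes of the pathway that carries the Taar signal showed few differences. Of 17 listed transduction genes, 16 were measured, with 6 means higher and 10 lower in knockouts. At an unadjusted p under 0.05, limma gave 0 higher and 1 lower (6.25%, against 2.55% of all clusters). This was Pde4a, a cyclic AMP phosphodiesterase, at 10.38, 10.39, 10.54 and 10.32 in the knockouts, against 10.67, 10.58, 10.42 and 10.58 in the controls, a difference of -0.16 ± 0.07 (limma adjusted p = 0.910). Cnga4, a subunit of the cyclic nucleotide-gated channel, had a difference of 0.24 ± 0.12 (limma adjusted p = 0.910). Gng13, a G protein gamma subunit, had -0.14 ± 0.09 (limma adjusted p = 0.910). The median difference of the list was -0.037.

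All 7 genes listed for receptor trafficking and feedback had a lower mean in knockouts, with a median difference of -0.034. Hspa5 (-0.00031) and Rtp1 (-0.0016) were close to 0. At an unadjusted p under 0.05 by limma, 2 of the 7 (28.6%) were lower, against 2.55% of all clusters. Rtp2, which helps ORs to the cell surface, was at 10.60, 10.81, 10.95 and 10.78 in the knockouts, against 11.09, 10.99, 10.87 and 11.22 in the controls. The difference was -0.26 ± 0.09 (limma adjusted p = 0.910). Atf5, a transcription factor of the feedback that stabilises receptor choice, had -0.15 ± 0.06, and Reep6, a receptor accessory protein, had -0.082 ± 0.060 (limma adjusted p = 0.910 for both). Reep1 (-0.034 ± 0.055) and Ric3 (-0.027 ± 0.089), like Hspa5 and Rtp1, differed by less than their SE. The listed Taar genes had higher means in knockouts. Over all 13 Taar genes with a cluster of their own, 10 were higher and 3 lower. The contrast in direction between the lists was not tested, and no gene of either list passed over all genes.

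Of 15 genes listed as regulators of receptor choice, 9 had higher and 6 lower means in knockouts, with a median difference of 0.012. Emx2 and 1 other gene reached an unadjusted p under 0.05 by limma (13.3% of the list, against 5.17% of all clusters). Emx2 is the deleted gene, so its lower signal was set by the design and the share is not a result about the list. The other was Cbx5, a heterochromatin protein, at 12.08, 11.99, 11.95 and 11.97 in the knockouts, against 11.90, 11.74, 11.89 and 11.90 in the controls. Its groups did not overlap, with a difference of 0.14 ± 0.05 (limma adjusted p = 0.910). Cbx3, of the same protein family, had 0.099 ± 0.053 (limma adjusted p = 0.910).

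Markers of the cells in the mucosa were set beside the Taar values. The mature OSN list (24 of 25 genes measured) had 6 means higher and 18 lower in knockouts, with a mean difference of -0.10 and a median of -0.043. At an unadjusted p under 0.05 by limma, 4 of its genes (16.7%) were lower, against 2.55% of all clusters. The Taar mean minus this list was 0.024, 0.10, 0.15 and 0.18 in the knockouts, against -0.25, 0.13, -0.19 and -0.14 in the controls, so 3 controls were below every knockout and control 2 was not. Dorsal zone markers (4 genes) had 2 means higher and 2 lower. Robo2, an axon guidance receptor, was higher at 0.12 ± 0.05 (limma adjusted p = 0.910) and Acsm4 at 0.067 ± 0.12. Nqo1 (-0.18 ± 0.16) and Msx1 (-0.016 ± 0.087) were lower. At an unadjusted p under 0.05 by limma, 1 of the 4 (25%) was higher, against 2.62% of all clusters. Ventral zone markers (5 genes) had 5 higher and 0 lower, with 0 at an unadjusted p under 0.05. Immature OSN genes (15) had 6 higher and 9 lower, with 3 lower at an unadjusted p under 0.05 (20%, against 2.55% of all clusters).

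Of the other cell types, progenitor genes (6 of 8 measured) had 6 higher means and a mean difference of 0.21. Cartilage and bone genes (6 of 7 measured) had 6 higher and a mean difference of 0.27. In each list 1 gene (16.7%) was higher at an unadjusted p under 0.05 by limma, against 2.62% of all clusters. Sustentacular genes (7 of 8 measured) had 3 higher and 4 lower, respiratory ciliated genes (5) 3 and 2, immune genes (8) 3 and 5, vomeronasal genes (4 of 5 measured) 3 and 1, and genes of guanylyl cyclase-D neurons (5) 1 and 4, with 0 at that level in these 5 lists. limma called 0 genes of any list at an adjusted p under 0.05. The part of cell composition in the Taar values was not tested.

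The Y-linked genes (3 of 4 measured) were 1.82 lower in knockouts as a mean, since 1 knockout and 3 controls had the high signal. Y-linked genes are carried by males, so the sexes may be uneven between the groups. Sex would then be partly confounded with genotype. Within the mice of high signal the mean difference of the 9 Taar genes was 0.29, and within those of low signal it was 0.079, in each case with a single mouse on 1 side. Taar minus Olfr was 0.20 and 0.30 in these sets. In a fit that included the Y-linked signal, the Taar mean difference was 0.21, and limma gave 2 of the 9 genes higher at an unadjusted p under 0.05, Taar5 (0.36) and Taar7d (0.25), where 1.81% of all clusters were higher at that level in the same fit, with 0 passing over all genes (adjusted p = 1.00 for both).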

How the data were processed

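The authors hybridised total RNA of each of 8 pups to GeneChip Mouse Gene ST arrays and deposited log2 signals, 1 value per transcript cluster. Affymetrix Expression Console is named, with no version, in the submitters' processing notes. The study worked at the transcript cluster level, where probe sets over the exons of a gene give a single value, and rescaled its comparisons to mature OSN mRNAs. The algorithms behind the deposited values are not stated in the sources read here. The values were used as deposited, and their precision is limited by the number of arrays. No detection calls were used, so no gene was judged absent.

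Groups came from the genotype labels. Mouse numbers were given in accession order and pair nothing. Litters that gave knockouts also gave controls in the study, but the labels do not name them. The p-values therefore measure the spread between mice with littermates treated as independent. Gene names came from the platform annotation: of 35557 clusters, 21789 named a single gene. All of these were fitted with lmFit and eBayes in limma (version 3.58.1, R 4.3.3), two-sided, with Benjamini-Hochberg adjustment over all 21789 and a threshold of 0.05. The code was tested on simulated data.

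Named genes were the 9 measured Taar genes (10 were planned), the other Taar genes, Emx2, Lhx2, Omp, the 3 genes of smallest p in the transduction, trafficking and receptor choice lists, the Olfr gene of smallest p in each direction, and the 5 genes most correlated with the Taar mean. The dorsal zone genes, and S100a5, Cidea and Kirrel2 of the mature OSN list, were named after their values were seen. The members, lists and rules were chosen with earlier results of these data known. OR class came from the RefSeq gene table (13 Olfr genes had no class). Promoter windows came from RefSeq (GRCm38.p6), and motifs were searched on both strands.

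Alternatives were quantile normalization, scaling to the mature OSN list, a filter on dim clusters, a variance trend, array weights, the methods' t-test, a Y-linked covariate, the mean of a gene's clusters, and leaving out each mouse. Values within the sets of high and low Y-linked signal were added after seeing the data.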

Additional observations from a re-analysis of the deposited data

Results flagged for a closer look

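The signal of Taar7d in knockout 3 (9.74) lay far from those of the other 3 knockouts (9.44, 9.46 and 9.49), with a gap to the nearest of them of 0.830 of the group's range, just above Dixon's critical value of 0.829 for 4 samples. It was the only such value among 20 groups of 4 tested, and chance flags about 1 in 20.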

How the results depend on the processing

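Over 16 alternatives, 0 of the 138 values for single Taar genes passed at an adjusted p under 0.05 by limma or the methods' t-test (lowest adjusted p 0.645), 134 kept their direction and 4 turned. Leaving out each mouse in turn gave differences of -0.056 (without control 3) to 0.19 (without control 2) for Taar9, which was also negative without knockout 3 (-0.028), of -0.038 (without control 3) to 0.14 (without control 4) for Taar6, and of -0.0047 (without control 3) to 0.20 (without control 2) for Taar7e. The number of the 9 genes higher at an unadjusted p under 0.05 was 4 when arrays were scaled to the mature OSN list (Taar2, Taar3, Taar5 and Taar7d), where 6.41% of all clusters were higher and 0.399% lower at that level. This scaling moved the median of all clusters to 0.10 with 88.8% of them higher. The number was 2 with the Y-linked signal in the model (1.81% of all clusters), and 0 to 2 over the fits that left out a mouse, with 2 (Taar2 and Taar5) without control 2 (2.11% of all clusters). The mean difference of the 9 genes ran from 0.044 (without control 3) to 0.20 (without control 2) over the fits that left out a mouse. It was 0.13 after quantile normalization and with array weights, 0.21 with the Y-linked signal in the model and 0.23 scaled to the mature OSN list. The number of all clusters called was 5 with array weights, 2 among clusters above the median signal, 2 after the mature OSN scaling and 1 without control 3, against 0 in the fit reported. Only Taar4, Taar7b and Taar7d had a mean above that median, and 0 of them passed. No paired analysis was possible because the mouse numbers were given in accession order and the labels name no litters. The number of mice limits these values, as may RNA shared between Taar7 probes, and the mean signals carry no detection limit. The causes of these changes were not tested.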
